A study of Mus musculus with 23 samples.

Results

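Genes that import cystine and that make, recycle or break down glutathione were followed in the colon mucosa of PPARα KO and WT mice fed heme. The list held 10 genes chosen by name for their role, with earlier results of these data known. They were Slc7a11 and Slc3a2 (cystine import), Gclc, Gclm and Gss (synthesis), Gsr (recycling), Chac1 and Ggt1 (breakdown), and Cth and Cbs (cysteine supply). Of these, 9 had a probe set naming only that gene, among 18820 genes measured, each with 1 such probe set. Ggt1, which splits extracellular glutathione, had none and was not analysed here.

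The mucosa was scraped from proximal and distal colon of male mice and pooled per mouse, with 1 Affymetrix array per mouse on a single plate. The groups were KO mice on the heme diet (n = 6), WT mice on the heme diet (n = 6), KO mice on the control diet (n = 6) and WT mice on the control diet (n = 5, after the study excluded 1 array for its quality). KO mice were 129S4/SvJae-Pparatm1Gonz/J, in which the exon for part of the ligand-binding domain of Ppara is disrupted, and WT mice were 129S1/SvImJ, so that the mutation and the substrain cannot be told apart. Mice entered the experiment at 7 to 9 weeks of age and ate their diet for 14 days. Both diets were Westernized, rich in fat (40% of the energy) and low in calcium (30 µmol/g), and heme was added to one of them at 0.5 µmol/g. Values are given as linear signal, the antilog of the deposited log2 value, which has no absolute unit and was not compared between genes.

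Glutathione, the main small thiol of animal cells, is built from glutamate, cysteine and glycine. Cysteine is often the scarce part. It enters cells as its dimer cystine through an exchanger that gives out glutamate, or is made from methionine by transsulfuration. Glutathione reduces peroxides and conjugates reactive lipids, and the colon epithelium uses it against oxidants from the gut lumen. In mammals the transcription factor NRF2 acts through antioxidant response elements, and ATF4 acts through amino acid response elements when amino acids run short or the endoplasmic reticulum is stressed.

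Promoter sequences from RefSeq (assembly GRCm38.p6) were found for 7 of the 10 genes, with none for Gclc, Gsr and Cth. The 250 bases before each start site were searched on both strands for TGACNNNGC, the core of the antioxidant response element, and for TGATGNAA, a core of the amino acid response element. They are shown for the genes in which a match was found and a signal was measured, since NRF2 and ATF4 are known to act on Slc7a11, ATF4 on Chac1 and NRF2 on Gclm. The first was in 10.2% of 32851 promoters and the second in 3.45%. Slc7a11 carried TGATGNAA at 66 to 59 and at 47 to 40 bases before its start, and 0.0396% of promoters held it more than once. Chac1 carried it once, at 193 to 186 bases. Gclm carried TGACNNNGC at 134 to 126 bases. TGACNNNGC was not found in the windows of Slc7a11 and Chac1, nor TGATGNAA in that of Gclm. The windows of Slc3a2, Gss and Cbs held neither. Ggt1 had 4 promoters in the table, with 2 matches to TGACNNNGC between them. Each stretch reads 5′ to 3′ on the gene's strand, and the capitals mark the matches, which are a description of the letters and not of binding.
Slc7a11, chr3:50443614-50443713, minus strand: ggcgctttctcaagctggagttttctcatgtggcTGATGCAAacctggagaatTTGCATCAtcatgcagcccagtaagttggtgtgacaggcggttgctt
Chac1, chr2:119350992-119351091, plus strand: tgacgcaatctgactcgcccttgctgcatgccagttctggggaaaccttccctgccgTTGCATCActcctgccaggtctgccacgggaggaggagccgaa
Gclm, chr3:122245377-122245476, plus strand: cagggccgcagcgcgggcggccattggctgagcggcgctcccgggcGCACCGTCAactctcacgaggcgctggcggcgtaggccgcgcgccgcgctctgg

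Array medians lay between 5.8 and 5.9 on the log2 scale, and arrays of a group correlated at 0.99 to 0.994 on average. Ppara, the disrupted gene, had a signal of 200 ± 31.5 in KO and 415 ± 43.9 in WT mice on the heme diet, and of 310 ± 46.5 in KO and 495 ± 50.9 in WT mice on the control diet (SD, n = 6, 6, 6 and 5). Whether its probes lie in the disrupted exon was not stated. The epithelial markers were all measured, with a summed signal of 55925 to 61856 in KO heme, 56144 to 59042 in WT heme, 56010 to 57600 in KO control and 54346 to 57677 in WT control mice. Markers of smooth muscle, which lies under the mucosa, moved with the diet in WT mice. All 14 were measured, with a mean signal above 20 in each group. Their summed signal was 4010 to 7021 in KO heme, 4428 to 6838 in WT heme, 4280 to 10717 in KO control and 7609 to 21324 in WT control mice. Heme lowered 1 of the 14 in KO mice and 11 in WT mice (median log2 fold change -0.45 and -1.10). By the threshold given below, 18.4% of all genes were called in KO mice (9.2% lower) and 17.9% in WT mice (8.29% lower). The 7.14% of smooth muscle markers called in KO mice was thus below the share of all genes. None of these markers was called for the difference of the heme effects between the genotypes. Of the other lists, 3 of 12 epithelial markers rose and 2 fell in KO mice, and 2 rose and 2 fell in WT mice. No fibroblast marker of 7 was called, 1 of 9 leukocyte markers was lower in each genotype, and of 5 markers of enteric nerve and glia 1 was higher in KO and 1 lower in WT mice. Their part in the results below was not tested, other than by models with the mean log2 value of the smooth muscle or of the epithelial markers as a term. The smooth muscle markers themselves moved with the diet, by the threshold chiefly in WT mice, so the model with them cannot tell their part from that of the diet. Some epithelial markers were also called for the diet (41.7% in KO and 33.3% in WT mice), so the same limit holds for the model with them. In such bulk tissue fewer cells of a type and less RNA per cell cannot be told apart. One WT heme mouse, replicate 4, and one KO heme mouse, replicate 1, had lower signals of several of the genes below than the other mice of their groups, and values that moved by over 1.5 times without them are given both ways in the comparisons they touch.

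The heme diet raised the whole synthesis and recycling set in both genotypes. Slc7a11, the cystine-carrying subunit of the exchanger xCT, rose 6.26-fold in KO mice and 8.44-fold in WT mice. Gclc, the catalytic subunit of glutamate-cysteine ligase, which makes the first and rate-limiting step, rose 2.86-fold and 3.39-fold. Gclm, Gss and Gsr rose between 1.39-fold and 1.99-fold, and Chac1 rose 1.64-fold in KO and 1.48-fold in WT mice. Cbs, the entry enzyme of transsulfuration, was the single gene of the list that fell, and it passed the test in WT mice only. A gene was called at an adjusted p under 0.01 (limma, Benjamini-Hochberg over all 18820 genes) with a mean signal above 20. By this measure 6 of the 9 genes were higher and 0 lower in KO mice, where 18.4% of all genes were called (9.23% higher and 9.2% lower). In WT mice 7 were higher and 1 lower, where 17.9% of all genes were called (9.6% higher and 8.29% lower). After centring of every array on its own median, the split over all genes in KO mice was 2012 higher and 1175 lower, against 1738 higher and 1731 lower without centring, and 7 of the 9 genes were higher. The median log2 fold change of the 9 genes was 0.59 in KO and 0.71 in WT mice, beside -0.01 over all genes in each.

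**Figure D1:**
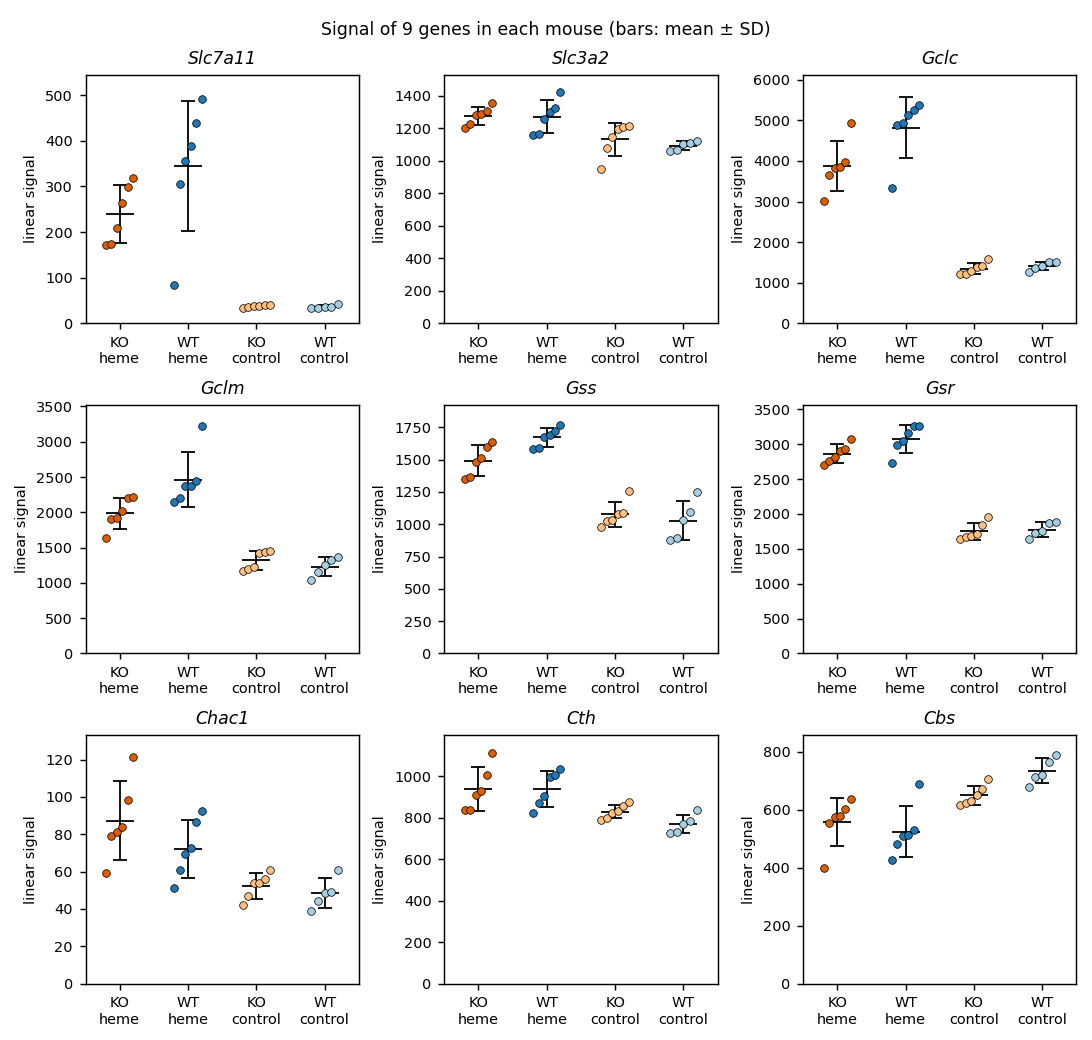
Linear signal (y axis, from 0, scale differs by gene) of the 9 measured genes in each mouse, with groups on the x axis. Points are mice, placed by increasing signal within a group, and bars are mean ± SD (n = 6 KO heme, 6 WT heme, 6 KO control, 5 WT control). For Slc7a11, Gclc, Gclm, Gss and Gsr all heme-fed mice lie above all control mice of their genotype, and 1 WT heme mouse lies at 84.2 for Slc7a11. Such a separation was found for 7.2% of all genes in KO and 8.07% in WT mice.

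The 2 subunits of the cystine exchanger differed in the size of their change. Slc7a11 had a lowest, median and highest signal of 171, 237 and 317 in KO heme mice and of 84.2, 372 and 491 in WT heme mice. On the control diet it had 33.1, 37.2 and 40.6 in KO mice and 32.5, 33.6, 35.1, 35.5 and 43.2 in the 5 WT mice. The groups on the 2 diets did not overlap in either genotype, a separation upwards that 7.2% of all genes showed in KO and 8.07% in WT mice. The log2 fold change was 2.65 ± 0.28 in KO (SE, adjusted p = 4.13e-07) and 3.08 ± 0.29 in WT mice (SE, adjusted p = 1.08e-07, limma). The mouse at 84.2 was WT heme replicate 4, with the next WT heme mouse at 305, and without it the log2 fold change in WT mice was 3.45.

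Slc3a2, the heavy chain that carries xCT and other amino acid exchangers to the cell surface, had small differences. Its lowest, median and highest signals were 1203, 1288 and 1355 in KO heme, 1158, 1279 and 1421 in WT heme, and 952, 1171 and 1216 in KO control mice, with 1061, 1067, 1101, 1112 and 1122 in WT control mice. All WT heme mice lay above all WT control mice, as 8.07% of all genes did, whereas KO heme mice overlapped with KO control mice. The log2 fold change of 0.18 ± 0.06 in KO (SE, adjusted p = 0.0252) and of 0.21 ± 0.06 in WT mice (SE, adjusted p = 0.0110) missed the threshold. In WT mice it passed when WT heme replicate 2, WT heme replicate 4 or KO control replicate 4 was left out, with 0.24 without WT heme replicate 4 (adjusted p = 0.00593). With the mean of the smooth muscle markers as a covariate Slc3a2 was called in both genotypes, at 0.23 in KO (adjusted p = 0.00570) and 0.33 in WT mice (adjusted p = 0.00639).

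The enzymes of synthesis rose together. Gclc had a lowest, median and highest signal of 3007, 3838 and 4935 in KO heme, 3338, 5028 and 5367 in WT heme, and 1204, 1338 and 1593 in KO control mice, and 1261, 1359, 1411, 1498 and 1512 in WT control mice. Its log2 fold change was 1.51 ± 0.11 in KO (SE, adjusted p = 1.10e-09) and 1.76 ± 0.11 in WT mice (SE, adjusted p = 4.88e-10). The heme groups stood well clear of the control groups, with replicate 4 again lowest among WT heme mice and the next at 4890. Of all genes, 7.2% lay wholly higher on the heme diet in KO and 8.07% in WT mice.

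Gclm, the modifier subunit that lowers the ligase's need for glutamate and its inhibition by glutathione, had 1640, 1965 and 2212 in KO heme, 2140, 2373 and 3216 in WT heme, and 1170, 1327 and 1458 in KO control mice, and 1041, 1152, 1256, 1325 and 1366 in WT control mice. Its log2 fold change was 0.59 ± 0.09 in KO (SE, adjusted p = 6.51e-05) and 1.00 ± 0.10 in WT mice (SE, adjusted p = 1.99e-07). Gss, glutathione synthetase, which adds glycine in the second step, had 1347, 1498 and 1637 in KO heme, 1584, 1684 and 1771 in WT heme, and 981, 1056 and 1254 in KO control mice, and 878, 893, 1033, 1091 and 1248 in WT control mice. Both genes were higher in every heme-fed mouse than in any control mouse of the same genotype. This separation was shown by 7.2% of all genes in KO and 8.07% in WT mice. The log2 fold change of Gss was 0.47 ± 0.08 in KO (SE, adjusted p = 6.64e-05) and 0.71 ± 0.08 in WT mice (SE, adjusted p = 1.01e-06).

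Gsr, glutathione reductase, which returns oxidised glutathione to its thiol form with NADPH, had the smallest standard error of the genes that rose. Its signals were 2698, 2860 and 3067 in KO heme, 2730, 3107 and 3266 in WT heme, and 1634, 1700 and 1951 in KO control mice, and 1637, 1722, 1753, 1865 and 1890 in WT control mice. The log2 fold change was 0.71 ± 0.05 in KO (SE, adjusted p = 2.85e-09) and 0.79 ± 0.06 in WT mice (SE, adjusted p = 1.18e-09). No heme-fed mouse overlapped with a control mouse, where 7.2% of all genes lay wholly higher on the heme diet in KO and 8.07% in WT mice.

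Chac1, a cytosolic enzyme that cleaves glutathione and is a known target of ATF4, was higher in both genotypes with wide scatter. It had 59.1, 82.6 and 122 in KO heme, 51.2, 71.0 and 92.5 in WT heme, and 42.1, 54.0 and 61.0 in KO control mice, and 39.2, 44.4, 48.6, 49.2 and 60.8 in WT control mice. In each genotype 5 of 6 heme-fed mice lay above all control mice. The log2 fold change was 0.71 ± 0.15 in KO (SE, adjusted p = 0.000934) and 0.56 ± 0.16 in WT mice (SE, adjusted p = 0.00956). The call in WT mice was narrow. It remained when WT control replicate 4, WT heme replicate 4 or 6, KO control replicate 2 or KO heme replicate 1 or 3 was left out, and was lost when any of the other 17 arrays was (0.49 to 0.57, adjusted p = 0.0102 to 0.0331). With the smooth muscle markers as a covariate the log2 fold change in WT mice was 0.53 (adjusted p = 0.117). With the epithelial markers, a covariate chosen after seeing the data, it was 0.79 (adjusted p = 0.00404).

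The 2 genes of transsulfuration moved apart in WT mice, and neither was called in KO mice. Cth, cystathionine gamma-lyase, which releases cysteine, had 837, 920 and 1113 in KO heme, 822, 951 and 1035 in WT heme, and 789, 829 and 876 in KO control mice, and 729, 731, 771, 785 and 838 in WT control mice. The heme-fed groups overlapped with their controls, with 4 of 6 mice above in KO and 5 of 6 in WT mice. Its log2 fold change was 0.17 ± 0.07 in KO (SE, adjusted p = 0.0630) and 0.28 ± 0.07 in WT mice (SE, adjusted p = 0.00422). The call in WT mice was lost without WT control replicate 1 or 2 or WT heme replicate 2 or 6 (adjusted p up to 0.0149), and with the smooth muscle covariate, which gave 0.11 in KO (adjusted p = 0.274) and 0.15 in WT mice (adjusted p = 0.294).

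Cbs, cystathionine beta-synthase, had 398, 576 and 639 in KO heme, 427, 512 and 690 in WT heme, and 616, 641 and 705 in KO control mice, and 681, 715, 722, 767 and 791 in WT control mice. In each genotype 5 of 6 heme-fed mice lay below all control mice, so that the groups overlapped, while 6.54% of all genes lay wholly lower in KO and 6.71% in WT mice. It fell by 0.50 ± 0.10 on the log2 scale in WT mice (SE, adjusted p = 0.000840), while the difference in KO mice was -0.23 ± 0.10 (SE, adjusted p = 0.0793), and -0.14 without KO heme replicate 1 (adjusted p = 0.215). With the smooth muscle markers in the model the difference in WT mice was -0.58 (adjusted p = 0.00824), and Slc7a11, Gclc, Gclm, Gss and Gsr also stayed called in both genotypes, with log2 fold changes of 0.39 to 2.54 in KO and 0.52 to 2.85 in WT mice.

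The comparison of KO with WT mice asked whether these genes differed between the genotypes, where the mutation and the substrain cannot be told apart. On the heme diet, Slc7a11 averaged 239 ± 63.4 in KO and 344 ± 143 in WT mice, Gclc 3874 ± 623 and 4816 ± 747, Gclm 1983 ± 215 and 2460 ± 388, and Gss 1491 ± 118 and 1671 ± 74.1 (SD, n = 6 each). The log2 differences were -0.38 for Slc7a11 (95% CI -0.96 to 0.20, adjusted p = 0.635), -0.31 for Gclc (-0.54 to -0.0871, adjusted p = 0.210), -0.30 for Gclm (-0.50 to -0.11, adjusted p = 0.147), -0.17 for Gss (-0.32 to -0.0103, adjusted p = 0.370) and -0.10 for Gsr (-0.21 to 0.00953, adjusted p = 0.461). Of the 9 genes, 6 had a difference below 0 and 3 above it. For Chac1 it was 0.27 (-0.0454 to 0.58, adjusted p = 0.501). Without KO heme replicate 1 it was 0.16, and without WT heme replicate 4 it was 0.17. For Cbs it was 0.0868 (-0.12 to 0.29, adjusted p = 0.784), with 0.18 and 0.17 in the same order. None of the 9 genes was called by limma, where 0.234% of all genes were (0.133% higher and 0.101% lower). At an unadjusted p under 0.05 in limma, which 12.2% of all genes passed, 3 of the 9 did so (Gclc, Gclm and Gss). The two-way model of the methods was also fitted to linear signal, without their Bonferroni step for group comparisons. In it 5 of the 9 passed (Slc7a11 and Gsr in addition), beside 12.1% of all genes, with 0 called after adjustment. The groups overlapped for each gene, whereas 0.388% of all genes lay wholly higher and 0.446% wholly lower in KO mice. For Gclm and for Gss, 4 of 6 KO mice lay below all WT mice.

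Single mice weighed on this comparison in opposite directions. Without WT heme replicate 4 the difference on the heme diet was -0.75 for Slc7a11 (adjusted p = 0.0108) and -0.41 for Gclc (adjusted p = 0.0254), neither past the threshold of 0.01, and -0.33 for Gclm (adjusted p = 0.115). Without WT heme replicate 5, which had the highest Slc7a11 (491), the difference of Slc7a11 was -0.24 (adjusted p = 0.797). Replicate 4 also had the lowest signal of its group for Hmox1, heme oxygenase (154, with the next at 751), and for Srxn1, sulfiredoxin (974, with the next at 1155). In KO heme mice the lowest signals of Gclc, Gclm, Hmox1 (249) and Srxn1 (949) were those of replicate 1.

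On the control diet no gene of the list was called between KO and WT mice (limma, adjusted p = 0.935 to 0.999), where 0.0531% of all genes were called (0.0159% higher and 0.0372% lower). None passed an unadjusted p under 0.05 in limma, as 5.74% of all genes did, or in the two-way model, as 5.9% did. The groups overlapped for each gene, whereas 0.441% of all genes lay wholly higher and 0.34% wholly lower in KO mice. The widest separation was that of Cbs, which averaged 650 ± 33.6 in KO (SD, n = 6) and 735 ± 43.6 in WT mice (SD, n = 5). For Cbs 5 of 6 KO mice lay below all WT mice (log2 difference -0.18, 95% CI -0.39 to 0.0367).

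The difference of the heme effects, KO minus WT, was below 0 for 7 of the 9 genes and called for 0, with 0.0106% of all genes called. It was -0.43 for Slc7a11 (95% CI -1.27 to 0.41, adjusted p = 0.887), -0.25 for Gclc (-0.57 to 0.0806, adjusted p = 0.814), -0.41 for Gclm (-0.69 to -0.13, adjusted p = 0.583) and -0.24 for Gss (-0.47 to -0.0143, adjusted p = 0.717). Without WT heme replicate 4 it was -0.80 for Slc7a11 (adjusted p = 0.350). With the smooth muscle covariate it was -0.15 for Gclc (adjusted p = 0.892) and -0.14 for Gss (adjusted p = 0.838). Gclm and Gss passed an unadjusted p under 0.05 in limma, as 6.75% of all genes did, and also in the two-way model, as 7.04% did. For Chac1 the difference was 0.15, and 0.05 without KO heme replicate 1 or 0.06 without WT heme replicate 4, with 0.05 to 0.26 over all single arrays left out. For Cbs it was 0.26 (-0.03 to 0.56, adjusted p = 0.763), so that the fall of Cbs past the threshold in WT mice alone was not shown to differ between the genotypes.

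**Figure D2:**
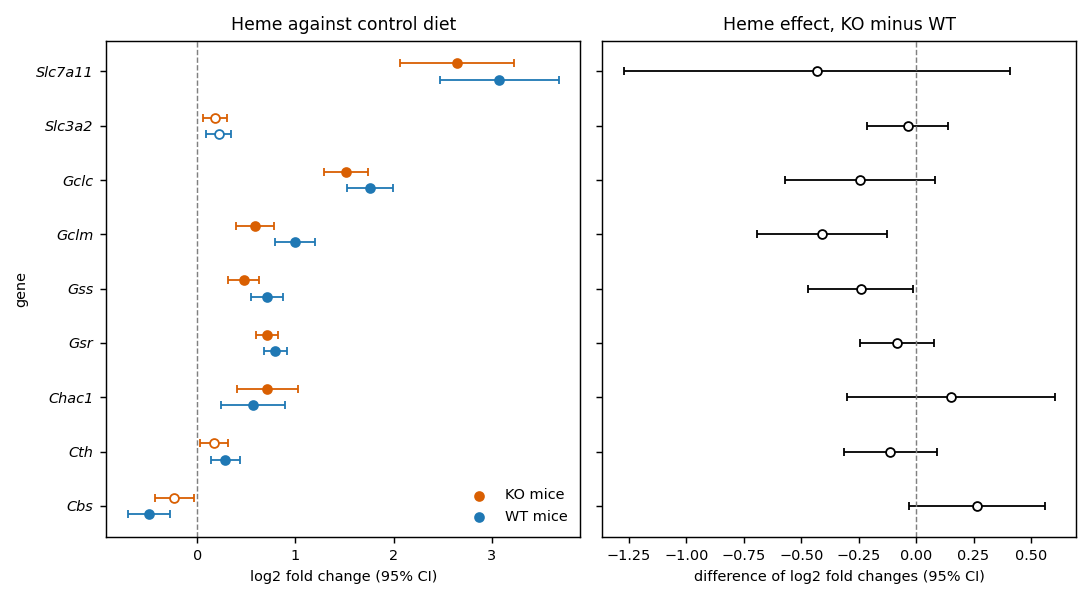
Left, log2 fold change of heme against control diet (x axis) for each gene (y axis) in KO mice (orange) and WT mice (blue); right, the difference of these effects, KO minus WT. Bars are 95% confidence intervals from limma, and filled points are called at an adjusted p under 0.01. Effects reach 2.65 in KO and 3.08 in WT mice for Slc7a11, and no point on the right is filled.

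Over the 23 arrays the pattern of Slc7a11 was most like those of Hmox1, Srxn1, Gclc, Sprr1a and Psca among 14159 genes (Pearson r of log2 values 0.976, 0.975, 0.973, 0.968 and 0.968). For Gclc the closest were Srxn1, Psca, Pgd, Akr1b8 and Txnrd1 (r = 0.981, 0.98, 0.98, 0.976 and 0.975). Pgd, an enzyme of the pentose phosphate pathway, supplies NADPH, and Txnrd1 is thioredoxin reductase. These values hold the difference between the diets, and all arrays were normalised together. After each group's mean was subtracted, r between Slc7a11 and Hmox1 was 0.789 over 23 arrays, but -0.08 over 21 arrays without WT heme replicate 4 and KO heme replicate 1, and that between Slc7a11 and Gclc was 0.706 and 0.182. The likeness of both pairs within groups thus rested on these 2 mice.

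Chac1 had a different set of companions, namely Capza1, Mfsd2a, Nsf, Gm8300 and Tnip3 (r = 0.888, 0.871, 0.866, 0.861 and 0.858). Within groups Chac1 ran opposite to Cbs (Pearson r = -0.80, Spearman rho = -0.73, 23 arrays), and without the same 2 mice r was -0.68. KO heme replicate 1 had the highest Chac1 (122) and the lowest Cbs (398) of its group, and WT heme replicate 4 had the lowest Chac1 (51.2) and the highest Cbs (690). Gclc and Gclm correlated at 0.671 within groups.

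**Figure D3:**
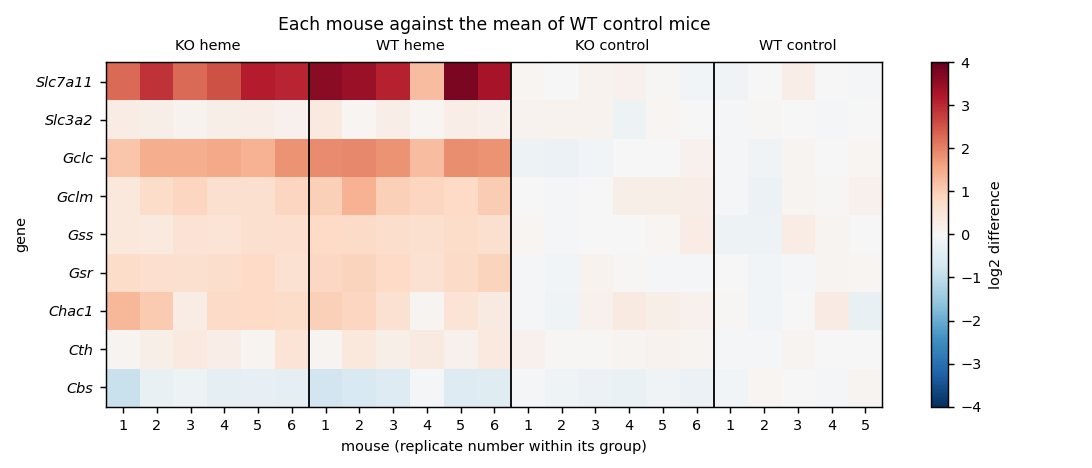
Log2 signal of the 9 genes (rows) in each of 23 mice (columns, numbered by replicate within group) minus the mean of WT control mice, on a colour scale from blue (lower) to red (higher). Slc7a11 and Gclc are red in all heme-fed mice, paler in WT heme replicate 4, and Cbs is the one row that is blue in most heme-fed mice.

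Other genes of the same pathways moved in both genotypes, in lists that were likewise chosen with earlier results of these data known. Of the NRF2 battery outside glutathione synthesis, antioxidant and NADPH-supplying enzymes, 12 of 16 measured genes rose and 1 fell in KO mice, and 13 rose and 1 fell in WT mice (median log2 fold change 0.58 and 0.75). That was 81.2% and 87.5% of the list called, beside 18.4% and 17.9% of all genes. The widest changes were those of Hmox1 (2.93 in KO and 3.43 in WT mice), Me1, malic enzyme (2.19 and 2.14), Nqo1, a quinone reductase (1.45 and 1.85), and Srxn1 (1.44 and 1.55). Ephx1, an epoxide hydrolase, fell by 0.70 in KO and by 0.62 in WT mice.

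Of the amino acid response, to which Chac1 and Slc7a11 are also known to belong, 10 of 22 measured genes rose and 1 fell in KO mice, and 7 rose and 1 fell in WT mice (median 0.37 and 0.34). That was 50% and 36.4% of the list called, beside 18.4% and 17.9% of all genes. Eif4ebp1, an inhibitor of translation initiation, rose by 1.12 in KO and 0.94 in WT mice. The serine and glycine makers Psat1 (0.79 and 1.17), Shmt2 (0.58 and 0.66) and Phgdh (0.50 and 0.69) rose too, as did Slc6a9, a glycine transporter (0.61 and 0.53). Ddit4, an inhibitor of mTORC1, rose by 0.60 in KO mice, with 0.35 in WT mice (adjusted p = 0.0556). Nupr1, a stress-induced nuclear protein, fell by 0.41 in KO and by 0.65 in WT mice. Atf4 itself had log2 fold changes of 0.10 in KO (adjusted p = 0.423) and 0.12 in WT mice (adjusted p = 0.339), and Trib3, a further known ATF4 target, 0.01 and 0.08 (adjusted p = 0.939 and 0.602). Atf4, Trib3, Nupr1 and Ephx1 were named after their values were seen.

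Transporters of cystine, cysteine and glutamate were split, with 2 of 11 measured genes higher and 3 lower in each genotype. That was 45.5% of the list in each, beside 18.4% of all genes in KO and 17.9% in WT mice. Slc1a4, which carries neutral amino acids including cysteine, rose by 1.20 in KO and 1.78 in WT mice, and Slc7a9, the light chain of the apical cystine transporter, by 0.76 and 1.00. Slc1a1, a carrier of glutamate and cysteine, fell by 0.65 in KO and by 0.70 in WT mice. The lysosomal cystine exporter Ctns fell by 0.47 in KO and by 0.45 in WT mice, and Slc1a5, a glutamine carrier, fell by 0.36 in KO and by 0.45 in WT mice. Slc1a4 was lowest in the same 2 heme-fed mice, at 244 in KO heme replicate 1 and at 426 in WT heme replicate 4.

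Of the enzymes that use glutathione, 28.6% were called in KO and 42.9% in WT mice, beside 18.4% and 17.9% of all genes. Of 14 measured, 4 rose in KO and 6 in WT mice, with none lower. They included Gpx2, the glutathione peroxidase of the gut epithelium (0.72 in KO and 0.65 in WT mice), Gpx4, which reduces lipid peroxides (0.45 and 0.53), and Esd, which hydrolyses S-formylglutathione (0.63 and 0.86). Glo1, glyoxalase, was lower in KO than in WT mice on both diets, at 1022 ± 35.0 in KO and 1946 ± 139 in WT mice on the heme diet (SD, n = 6 each, log2 difference -0.93, adjusted p = 2.03e-11) and at 856 ± 34.4 in KO (SD, n = 6) and 1470 ± 70.2 in WT mice (SD, n = 5) on the control diet (-0.78, adjusted p = 2.15e-09). It was the only gene of these lists called between genotypes, where the substrain cannot be told apart from the mutation.

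Of 12 genes of glutathione breakdown and dipeptide hydrolysis, 1 rose and 1 fell in KO mice, and 2 rose and 0 fell in WT mice. Chac2, a slower relative of Chac1, rose by 0.55 in KO and 0.49 in WT mice, while Anpep, an aminopeptidase of the brush border, fell by 0.68 in KO mice, with -0.36 in WT mice (adjusted p = 0.0884). In each genotype 16.7% of this list was called, near the 18.4% and 17.9% of all genes. Of 22 genes of the methionine cycle and sulfur catabolism, 6 rose and 1 fell in KO mice, and 6 rose and 0 fell in WT mice (median 0.07 and 0.08). That was 31.8% and 27.3% of the list called, beside the same shares of all genes. Got1, an aminotransferase (0.75 in KO and 0.85 in WT mice), and Mpst, which takes sulfur from a breakdown product of cysteine (0.74 and 0.53), rose most.

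**Figure D4:**
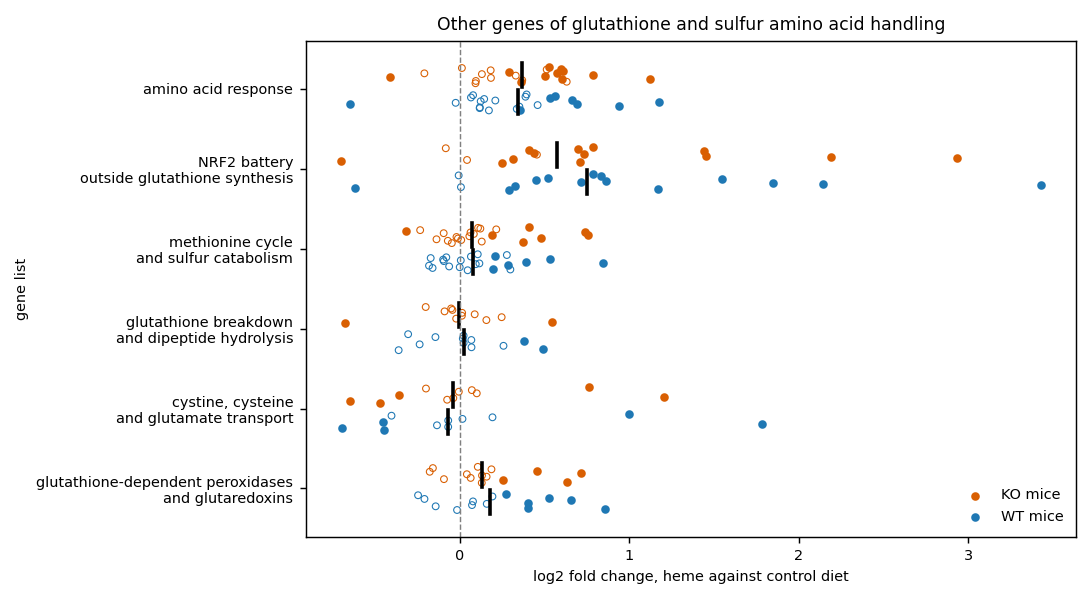
Log2 fold change of heme against control diet (x axis) for each measured gene of 6 lists (y axis) in KO mice (orange) and WT mice (blue). Filled points are called at an adjusted p under 0.01 in limma, open points are not, and black bars are list medians. The NRF2 list has the highest medians, 0.58 in KO and 0.75 in WT mice, and the transport list has medians of -0.04 and -0.07.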

How the data were processed

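Colon mucosa RNA of 23 mice (100 ng each) was hybridised to Affymetrix Mouse Gene 1.1 ST arrays. The deposited log2 values were computed by the authors with Robust Multi-array Average (RMA) over all arrays, with no version given in the sources used here, and were used as given. The methods name reorganised probe sets and an expression kit, whereas the table's identifiers match Affymetrix transcript clusters and the labels name another kit. Of 35556 probe sets, 21218 had 1 symbol (12457 none, 1881 several), and 21185 were matched by Entrez number to a RefSeq table (GRCm38.p6). For 1386 genes with several probe sets the brightest was kept. Array signals have no read depth, and precision depends on how many arrays a group has and on the spread among its mice.

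All 4 groups were fitted together with limma 3.58.1 (R 4.3.3), with 5 contrasts and Benjamini-Hochberg adjustment over 18820 genes. The methods give a two-way test with Bonferroni comparisons for means of the groups but no test behind the array q-values, so limma was used at their array thresholds (0.01, signal above 20). Members and lists were chosen with earlier results of these data known. Every member is named, and of each list at most the 4 called genes that changed most in KO and in WT mice, given for both genotypes. Exceptions are stated. Likeness was the Pearson correlation over 23 arrays among genes with a mean signal above 20. The fit was tested on simulated data for the heme effect in WT mice only, with independent noise of equal spread in all groups. That test covered neither the genotype comparisons nor mice that stand apart from their group. Alternatives were other filters, thresholds, scales, weights, centring, covariates, a replicate block, leaving out each array and the methods' two-way model. That model was fitted to linear signal, without Bonferroni comparisons. Python 3.11.15, numpy 2.4.6, pandas 2.3.3 and matplotlib 3.10.9 gave summaries and plots.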

Additional observations from a re-analysis of the deposited data

Results flagged for a closer look

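In 4 of the 36 sets of values (9 genes in 4 groups) 1 mouse stood apart from its group, where the criterion is met by chance in about 1 of 20 sets. WT heme replicate 4 was far below the other WT heme mice for Slc7a11 (84.2) and for Gclc (3338). WT heme replicate 2 was far above its group for Gclm (3216). KO heme replicate 1 was far below its group for Cbs (398). Without WT heme replicate 2 the difference of Gclm between KO and WT mice on the heme diet was -0.22 (adjusted p = 0.271, limma). What set these mice apart was not tested.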

How the results depend on the processing

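The heme effects on Slc7a11, Gclc, Gclm, Gss and Gsr kept their direction and their call in both genotypes under each alternative and each array left out. With single arrays left out, 6 genes were called in KO mice and 6 to 9 in WT mice, and under the other alternatives 6 to 7 in KO and 6 to 9 in WT mice. With the replicate number as a block 6 genes were called in KO and 8 in WT mice. Deviations of same-numbered mice correlated above 0.1 in 13 of 33 pairs (-0.31 to 0.34). These were not set against pairs with different numbers, so whether the numbers paired the mice was not tested. The block ended the call of Chac1 in WT mice (adjusted p = 0.0144, limma). So did the methods' two-way model without its Bonferroni step (0.0476) and a fit of only the groups compared (0.0149). The call of Cth also ended in that last fit (0.0103), as it did with the epithelial covariate (0.123).

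Signs turned only for genotype differences near 0. With array weights the difference on the heme diet was -0.0058 for Slc3a2 and 0.0032 for Cth. With the smooth muscle covariate the difference on the control diet was -0.094 for Slc7a11, -0.049 for Gclm and -0.042 for Gss, and with an epithelial marker covariate, chosen after seeing the data, -0.013 for Slc7a11. With single arrays left out, Slc3a2 ranged from -0.016 to 0.043 and Cth from -0.054 to 0.028 on the heme diet, and Gsr from -0.052 to 0.0034 on the control diet. Centring each array on its median raised the heme effects by 0.04 in KO and 0.03 in WT mice, and Slc3a2 was then called in both. Over all genes the calls for the heme effect in WT mice numbered 3367, but 1266 with the smooth muscle and 1643 with the epithelial covariate. At an adjusted p under 0.05 they numbered 5235 in KO mice, against 3469 at 0.01, and 5092 in WT mice. Between KO and WT mice on the heme diet 44 genes were called, with 17 to 148 under the alternatives and 28 to 69 with single arrays left out, none of them from the list. On the control diet 10 were called, with 7 to 15 under the alternatives, and for the difference of the heme effects 2, with 0 in both tests on linear signal. The number of mice and the spread among heme-fed mice limit the genotype comparison, where a log2 difference of Slc7a11 anywhere from -0.96 to 0.20 lies within the 95% interval.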
